A study of Mus musculus with 18 samples.

Results

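The 34 genes described here encode proteins that skeletal muscle makes in quantity and other tissues of the jaw make little of. They were taken by name from the 38243 genes counted in each library: 9 genes of the thin filament, 9 of the thick filament, 4 of the Z-disc and its scaffold, creatine kinase Ckm, 4 of calcium handling, 2 subunits of the muscle acetylcholine receptor and 5 myogenic transcription factors. All 34 symbols matched 1 gene each, on 11 chromosomes. The tissues came from 6 female C57BL/6 embryos at E16.5, 3 heterozygous for the Apert syndrome mutation S252W of fibroblast growth factor receptor 2 (Fgfr2+/S252W) and 3 unaffected littermates (Fgfr2+/+), with no other allele or agent in the labels. From each embryo, mandibular bone, Meckel's cartilage (MC) and mandibular condylar cartilage were cut out of unfixed frozen coronal sections by laser capture microdissection, which gave 18 libraries in 6 groups of 3. None of these tissues is muscle, so the genes report what the cut carried along from muscle or muscle precursors, or what the captured cells make of these genes themselves, and bulk counts do not separate those. The mutation changes 1 codon, so that gene counts cannot check the genotype labels, and littermates of 1 background are the whole range of embryos here.

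Skeletal muscle contracts through sarcomeres, in which thick filaments of myosin slide along thin filaments of actin that are anchored at the Z-disc. The thin filament is switched on when calcium, released through the ryanodine receptor Ryr1 and returned to store by the pump Atp2a1, binds troponin C. Late embryonic muscle still uses developmental isoforms, among them embryonic myosin (Myh3), perinatal myosin (Myh8) and cardiac alpha-actin (Actc1), and is built under the transcription factors Myod1, Myf5, Myog and Myf6 from progenitors that carry Pax7. The masticatory and tongue muscles of the jaw lie beside the mandibular bone, MC and the condyle, so a muscle gene can serve as a readout of where a capture was cut.

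Total counts per library lay between 8218548 and 15585778. Values below are TMM-scaled CPM, the fragments of a gene relative to the library's scaled total, and between genes they are compared only per length as FPKM. At these depths 1 fragment was worth 0.0443 to 0.0734 CPM in bone, 0.0929 to 0.225 CPM in MC and 0.0669 to 0.128 CPM in condylar cartilage, which sets the smallest level that could be seen. The labels were compared with marker genes. The 9 osteoblast markers, among them Col1a1 and Ibsp, summed to 17239 to 35133 CPM in bone, 1615 to 4035 in MC and 5076 to 19883 in condylar cartilage. The 10 chondrocyte markers, among them Col2a1 and Acan, summed to 37991 to 45665 CPM in condylar cartilage but only to 1016 to 10584 in MC, against 1409 to 2427 in bone. The library labelled Fgfr2+/+ MC replicate 1 had the lowest chondrocyte sum of all 18 libraries, below every bone library, and an Ibsp level of 230.1 CPM where the other MC libraries had 1.87 to 9.63. Its Acan level of 97.8 CPM still lay above the 0.214 to 6.82 CPM of bone. Results in MC are therefore also given without it.

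The bases upstream of the 3 genes with the highest mean level per length (Actc1, Mylpf and Acta1), and of Tnni1, which differed between tissues, are shown as the start regions of the genes that the comparisons below turn on. They are the 250 bases before the annotated RefSeq start (build GRCm38.p6), printed on the gene's own strand. Actc1 lies at chr2:114052876-114053125 on the minus strand, Mylpf at chr7:127211358-127211607 on the plus strand, Acta1 at chr8:123894776-123895025 on the minus strand and Tnni1 at chr1:135799171-135799420 on the plus strand. Capitals mark the E-box CANNTG, the letters that myogenic factors of the Myod1 family and many other basic helix-loop-helix proteins bind, and which reads the same on both strands.

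Actc1: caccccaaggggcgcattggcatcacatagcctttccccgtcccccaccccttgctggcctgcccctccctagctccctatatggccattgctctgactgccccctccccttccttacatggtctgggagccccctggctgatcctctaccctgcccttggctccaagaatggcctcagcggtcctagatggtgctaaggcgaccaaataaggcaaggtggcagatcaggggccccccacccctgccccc
Mylpf: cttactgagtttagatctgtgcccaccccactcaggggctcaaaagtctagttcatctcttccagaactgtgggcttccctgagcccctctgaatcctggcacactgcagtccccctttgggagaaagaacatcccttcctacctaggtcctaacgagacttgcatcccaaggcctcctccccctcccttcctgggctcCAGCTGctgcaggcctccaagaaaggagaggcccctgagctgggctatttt
Acta1: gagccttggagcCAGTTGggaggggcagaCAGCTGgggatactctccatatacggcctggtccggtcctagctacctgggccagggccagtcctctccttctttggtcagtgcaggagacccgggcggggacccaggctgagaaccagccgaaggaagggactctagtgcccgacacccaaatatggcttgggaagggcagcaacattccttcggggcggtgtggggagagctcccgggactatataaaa
Tnni1: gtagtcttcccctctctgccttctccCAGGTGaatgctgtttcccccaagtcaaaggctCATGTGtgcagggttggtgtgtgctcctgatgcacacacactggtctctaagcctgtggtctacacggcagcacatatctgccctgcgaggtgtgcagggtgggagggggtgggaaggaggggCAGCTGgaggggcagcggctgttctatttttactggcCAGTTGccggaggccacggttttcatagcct

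Acta1 held 2 E-boxes, Mylpf 1 and the window of Tnni1 shown here 4, and Actc1 held none in this window. A second start of Tnni1, with the window chr1:135799261-135799510, held 2. RefSeq windows were at hand for 28 of the 34 genes (30 windows, since Myh7 and Tnni1 had 2 each), and 25 of the 30 held CANNTG, against 66.2% of all 32851 windows. The narrower letters CAGCTG, which are part of the first motif, were in 13 of the 30 windows (43.3%) and in 13% of all windows. TATAAA, searched on both strands, was in 6 of the 30 (20%) and in 12.4% of all. These are matches of letters and not shown sites. No window was at hand for Tnnt3, Tnni2, Neb, Actn3, Myod1 and Myf6.

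The summed level of the 34 genes varied 36.7-fold over the 18 libraries, and most of that spread lay between libraries of 1 group. In bone it was 71.3, 87.5 and 199 CPM in the Fgfr2+/S252W libraries and 1141, 1076 and 197 CPM in Fgfr2+/+ replicates 1, 2 and 3. In MC it was 126, 75.7 and 433 CPM in Fgfr2+/S252W and 73.4, 1235 and 141 CPM in Fgfr2+/+. In condylar cartilage it was 43.2, 37.5 and 35.3 CPM in Fgfr2+/S252W and 33.7, 346 and 689 CPM in Fgfr2+/+. The groups overlapped in all 3 tissues, because at least 1 Fgfr2+/+ library per tissue (replicate 3 in bone, replicates 1 and 3 in MC, replicate 1 in condylar cartilage) lay at or below the highest Fgfr2+/S252W library. That libraries of 1 number and genotype come from the same embryo was inferred from the sample codes, and is not stated in the labels. The Fgfr2+/+ embryo of number 2 was high in every tissue, whereas number 1 was high in bone only and number 3 in condylar cartilage only. Without TMM scaling, as plain CPM, bone replicates 1 and 2 of Fgfr2+/+ stood at 1355 and 1337 and MC replicate 2 at 679, so that the order of bone and MC at the top depended on the scaling.

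**Figure D1:**
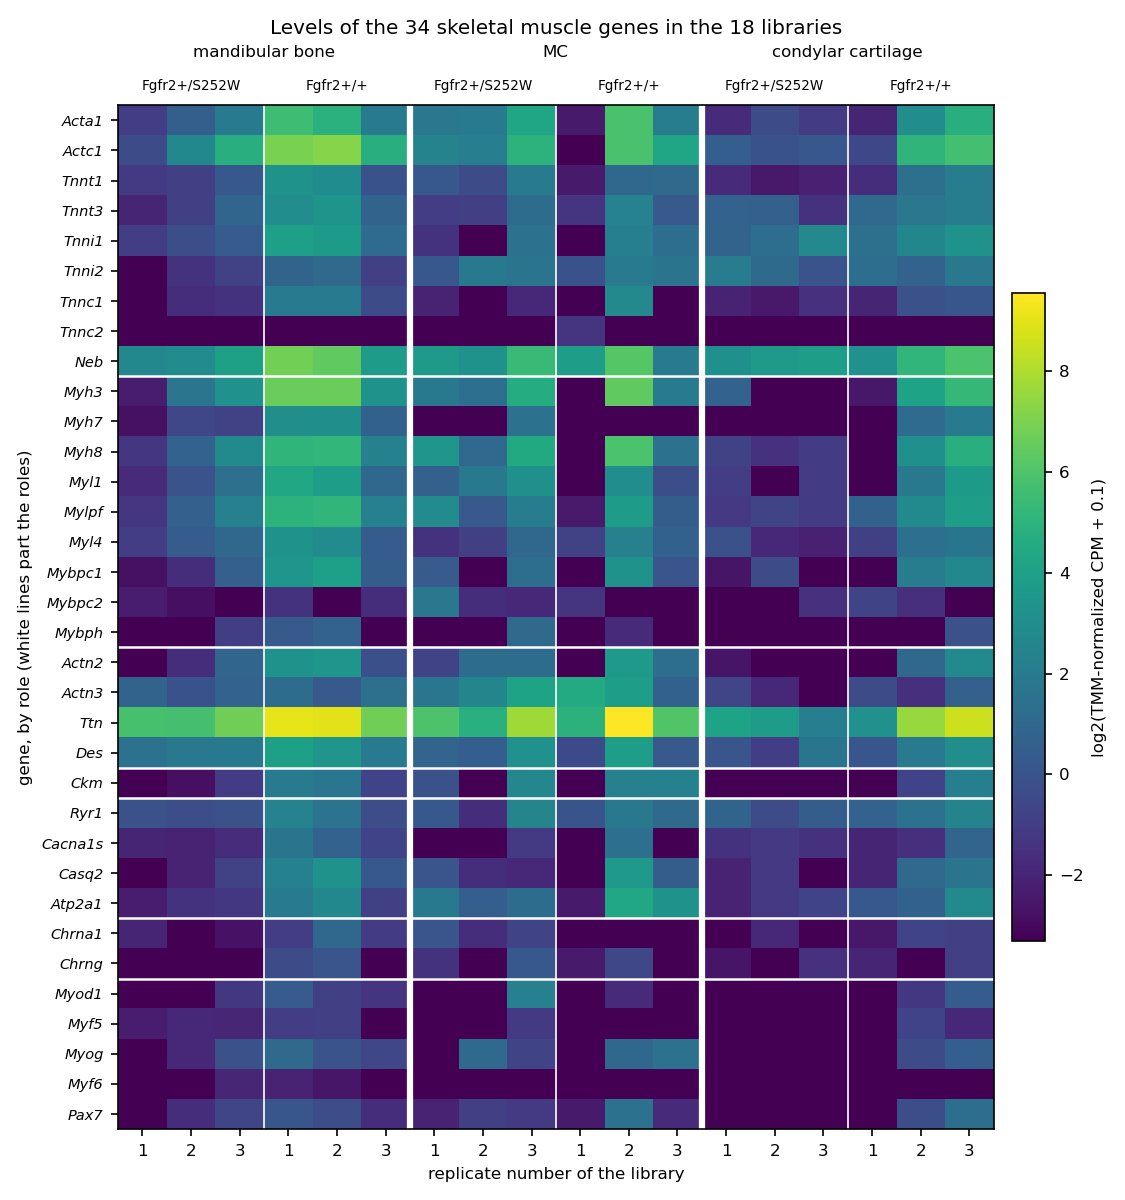
Heat map of the 34 genes (rows, ordered by role, with white lines between roles) in the 18 libraries (columns, 3 replicates for each genotype and tissue), coloured by log2 of TMM-normalized CPM plus 0.1. Fgfr2+/+ bone replicates 1 and 2, MC replicate 2 and condylar replicates 2 and 3 are bright over most rows, and Ttn and Neb stay above the floor in every library.

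**Figure D2:**
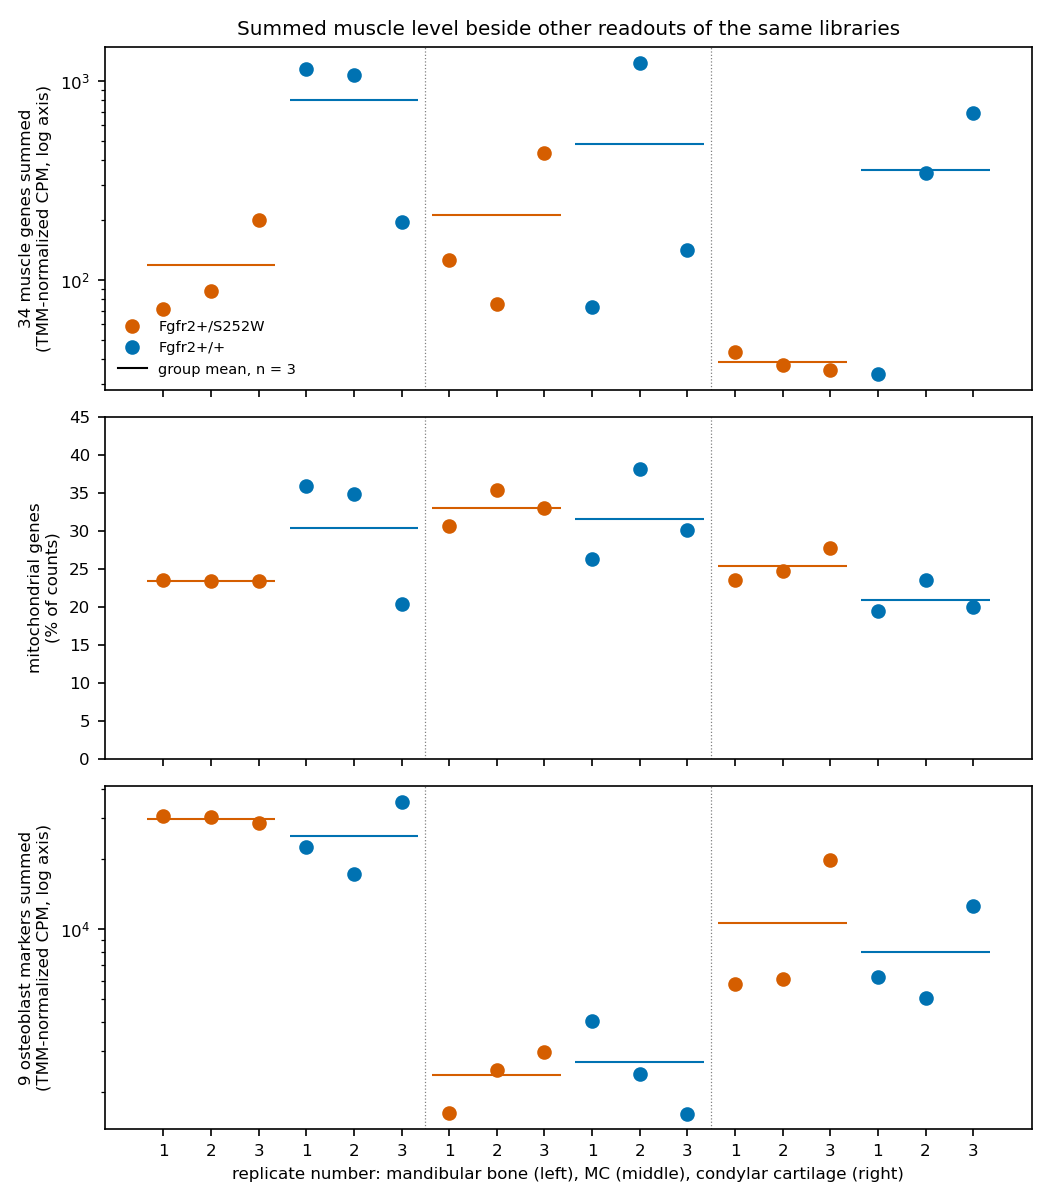
Each point is 1 library, with lines at group means (n = 3): summed level of the 34 genes (top, log axis), share of counts on mitochondrial genes (middle, percent) and summed level of 9 osteoblast markers (bottom, log axis). In bone, Fgfr2+/+ replicates 1 and 2 are high in the top and middle panels and low in the bottom panel, and replicate 3 is not.

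Most of these counts came from the giant genes. Ttn (titin, the spring that spans the sarcomere) and Neb (nebulin, the ruler of the thin filament) together took 50.9% to 87% of the fragments on the 34 genes. Both were counted in every library, also where the short and abundant sarcomere genes were nearly missing. In Fgfr2+/S252W condylar cartilage Neb was at 8.84, 12.3 and 14.4 CPM while Acta1, the alpha-actin of adult skeletal muscle, was at 0.201, 0.688 and 0.385 CPM. Per length, Neb then stood at 0.490 ± 0.116 FPKM (SD, n = 3) and Acta1 at 0.296 ± 0.172, whereas in Fgfr2+/+ bone Neb was at 2.92 ± 2.12 and Acta1 at 18.6 ± 15.0. The highest mean levels per length over all libraries were those of Actc1 (18.8 FPKM), Mylpf, the fast regulatory light chain (9.11), Acta1 (8.12) and Myh3 (3.65). Of the 34 genes, 17 had a mean above 1 FPKM and 10 a mean under 0.2 FPKM. The lowest were Tnnc2, the troponin C of fast fibres, with 3 fragments in all, and Myf6, with 6.

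Within a library, the isoforms kept their order more than the levels did. Where both genes had at least 10 fragments, Myh3 exceeded Myh8 per length in 10 of 11 libraries, at a median ratio of 1.82, and exceeded the slow myosin Myh7 in 7 of 7, at a median of 9.40. Actc1 exceeded Acta1 in 10 of 12 libraries, with ratios from 0.898 to 6.29. Mylpf exceeded Myl4, the embryonic and atrial light chain, in 9 of 9 libraries. The inhibitory troponins did not keep an order: the slow isoform Tnni1 exceeded the fast isoform Tnni2 in 4 of 10 libraries, with ratios from 0.212 to 5.06. Those 4 were Fgfr2+/+ bone replicates 1 and 2 and Fgfr2+/+ condylar replicates 2 and 3.

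Fragments that overlap several genes were not counted and strand was not used, so genes that share exon bases with a neighbour are less certain. This holds for 8 of the 34: Tnnc2 (with Ube2c), Myh7 (Mhrt), Mybph (Adora1), Ttn (Gm13938), Des (Gm15179), Ckm (A930016O22Rik), Ryr1 (Gm26604) and Atp2a1 (Rabep2). Actins and myosins are close paralogs, and fragments that fit several of them were dropped.

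In mandibular bone, which was compared to ask whether the capture carried the same muscle signal in both genotypes, the summed muscle level of every Fgfr2+/S252W library lay below that of 2 of the 3 Fgfr2+/+ libraries. Of 33 genes with any count in bone, Fgfr2+/+ replicate 1 lay above all 3 Fgfr2+/S252W libraries in 32, replicate 2 in 30 and replicate 3 in 14. How often a single Fgfr2+/+ library lay above all 3 among all genes was not counted. No gene of the list passed the threshold. Only 8 of the 34 (Acta1, Actc1, Tnnt3, Tnni1, Tnni2, Myl1, Mylpf and Des) passed the filter of 1 FPKM, and 0 of these 8 had an adjusted p below 0.05 in limma, in edgeR or in DESeq2, against 0.0872% of all 11469 genes. At an unadjusted p below 0.05, all 8 were lower in Fgfr2+/S252W, where 4.12% of all genes were lower by that rule. With edgeR there were 7 and with DESeq2 6 at such a p, where 4.89% and 5.81% of all genes had it in either direction. In a fit of the 20614 genes with at least 10 fragments, which held 32 of the 34 (all but Tnnc2 and Myf6), 0 of 32 passed (0.160% of all genes) and 24 had an unadjusted p below 0.05, all lower, against 3.40% of all genes. The median log2 fold change over the 32 was -3.18, and 0.02 over all genes of that fit. In 12 genes all 3 Fgfr2+/S252W libraries lay below all 3 Fgfr2+/+ libraries (Tnni1, Tnnc1, Myh3, Myh7, Mylpf, Ttn, Des, Ckm, Cacna1s, Casq2, Atp2a1 and Chrna1), which happened in 9.09% of all genes. Lower levels cannot be assigned to fewer muscle cells in the cut or to less RNA per cell, which bulk libraries do not tell apart.

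Among the genes of the thin filament, Actc1 was at 0.665, 6.38 and 27.6 CPM in the Fgfr2+/S252W bone libraries and at 126, 151 and 26.9 CPM in the Fgfr2+/+ libraries. Replicate 3 of either genotype was thus at the same level, and the limma fold change of -3.99 (log2, SE 1.36) had an adjusted p of 0.403. Acta1 was at 0.409, 1.37 and 4.07 CPM against 46.4, 29.6 and 3.78 CPM, a log2 change of -3.62 (SE 1.58, adjusted p 0.580). Tnni1, which blocks actin from myosin in slow and embryonic fibres, was at 0.409, 0.754 and 1.23 CPM against 15.5, 12.8 and 2.15 CPM. Its groups did not overlap, with a change of -3.25 (SE 1.09, adjusted p 0.396). Tnnt3, the fast troponin T that ties the troponins to tropomyosin, was at 0.154, 0.443 and 1.71 CPM against 7.96, 10.1 and 1.64 CPM. Its groups overlapped at replicate 3, and its change of -3.22 (SE 0.93, adjusted p 0.276) had the smallest adjusted p of the 8, for which it was picked after its values were seen.

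Of the thick filament, Mylpf was at 0.307, 1.46 and 4.76 CPM in Fgfr2+/S252W bone and at 31.7, 35.1 and 4.91 CPM in Fgfr2+/+ bone (log2 change -3.67, SE 1.11, adjusted p 0.312). Myl1, the essential light chain of fast fibres, was at 0.205, 0.887 and 2.57 CPM against 20.7, 14.9 and 1.92 CPM (-3.29, SE 1.43, adjusted p 0.580). Its groups overlapped at replicate 3, those of Mylpf by a narrow margin did not. Myh3 was at 0.102, 3.19 and 8.99 CPM against 97.1, 102 and 9.60 CPM, a change of -4.74 (SE 1.85, adjusted p 0.488 in the fit of genes with at least 10 fragments, which also gave all values that follow for bone except that of Des). Of the other thick filament genes, Myh7, Myh8, Myl4 and Mybpc1 had changes between -4.17 and -1.96, and Mybpc2 and Mybph, with 11 and 46 fragments in bone, had -1.15 (SE 1.19) and -2.40 (SE 1.52).

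Of the Z-disc and scaffold, Ttn was at 55.7, 54.7 and 108 CPM in Fgfr2+/S252W and at 549.7, 501 and 109 CPM in Fgfr2+/+ (log2 change -2.08, SE 0.91, adjusted p 0.572). Des, the desmin filament that links Z-discs, was at 2.82, 3.55 and 3.53 CPM against 16.1, 10.5 and 3.90 CPM (-1.35, SE 0.63, adjusted p 0.605). Actn3, the alpha-actinin of fast fibres, did not share the pattern. It was at 1.59, 0.842 and 1.55 CPM against 2.21, 1.10 and 2.60 CPM, a change of -0.53 (SE 0.93), and its paralog Actn2 had -4.13 (SE 1.76). Ckm, which buffers ATP in muscle, was at 0, 0.0443 and 0.375 CPM against 4.01, 3.23 and 0.508 CPM (-4.31, SE 1.60, adjusted p 0.453).

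Of the calcium handling genes, Casq2, the calcium-binding protein of the store in slow and cardiac fibres, was at 0, 0.133 and 0.482 CPM against 4.88, 9.68 and 1.07 CPM (-4.73, SE 1.43, adjusted p 0.286). Atp2a1 was at 0.102, 0.266 and 0.321 CPM against 3.75, 6.31 and 0.452 CPM (-3.09, SE 1.56, adjusted p 0.676). Ryr1 was nearly level among 4 of the 6 libraries, at 0.819, 0.754 and 0.803 CPM against 5.22, 2.93 and 0.734 CPM (-1.36, SE 0.76, adjusted p 0.717). Of the receptor subunits, Chrna1 had the smallest adjusted p of the 32 genes, at 0.154, 0 and 0.0535 CPM against 0.401, 1.91 and 0.395 CPM (-3.27, SE 0.88, adjusted p 0.205). Chrng, the fetal subunit, had no fragment in Fgfr2+/S252W bone and 23 in Fgfr2+/+ bone, all in replicates 1 and 2, so that it was at least 10.1-fold lower by a floor of 3 fragments over the group, or at least 6.20-fold without Fgfr2+/+ bone replicate 2. The transcription factors were counted in few fragments: Myog, which drives differentiation, was at 0, 0.177 and 0.803 CPM against 2.07, 0.880 and 0.565 CPM (-2.61, SE 1.38, adjusted p 0.698). Myod1, which commits cells to muscle, was at 0, 0 and 0.321 CPM against 1.204, 0.440 and 0.282 CPM (-3.21, SE 1.32, adjusted p 0.521). Pax7 was at 0, 0.222 and 0.535 CPM against 1.00, 0.734 and 0.226 CPM (-1.85, SE 1.25, adjusted p 0.809), and Myf5 had a change of -0.02 (SE 1.04). The groups of all 3 factors given by library overlapped.

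With sample quality weights, all 8 genes passed (adjusted p from 0.00188), as did 589 genes in all. Without Fgfr2+/+ bone replicate 3 the genes that passed were Mylpf, Tnni1 and Tnnt3 of 7 tested. The count over all genes without that library is not given here. Other readouts moved with the same libraries. Mitochondrial genes took 36.0% and 34.8% of counts in Fgfr2+/+ replicates 1 and 2, 20.4% in replicate 3 and 23.4% to 23.6% in Fgfr2+/S252W, and the 9 osteoblast markers, all 9 of which were counted in both genotypes, summed to 22598, 17239 and 35133 CPM against 28482 to 30696 CPM. Gm42418, a gene that overlaps ribosomal RNA sequence, took 5.58% to 6.49% of counts in Fgfr2+/S252W bone and 8.57% to 9.33% in Fgfr2+/+ bone. The sums of 5 marker lists, heart included, did not overlap between the genotypes, while endothelial markers (184 to 194 CPM against 163 to 229 CPM) and chondrocyte markers (1964 to 2010.2 against 1409 to 2427 CPM) did. The gap between the heart sums was smaller than the worth of 1 fragment. Tendon markers (4 of 5 counted in Fgfr2+/S252W, Kera being at 0, and 5 of 5 in Fgfr2+/+) lay at 53.7 to 77.9 CPM against 110.2 to 127 CPM, smooth muscle markers (7 of 7) at 48.4 to 57.1 against 70.5 to 81.7 CPM, red blood cell markers (5 of 5) at 313 to 595 against 1249.5 to 1503 CPM and macrophage markers (5 of 5) at 194 to 267 against 109 to 141 CPM. The smooth muscle sum went mostly by Acta2 (14.7 to 18.5 against 30.7 to 42.4 CPM), while Smtn overlapped (26.7 to 34.3 against 30.0 to 33.5 CPM), and the tendon sum mostly by Fmod, while Mkx overlapped (14.9 to 21.5 against 19.2 to 23.0 CPM). In the fit of genes with at least 10 fragments, the median log2 change was -0.32 over the 7 smooth muscle markers and -1.96 over the 5 tendon markers. Markers other than Acta2 and Fmod were thus lower in Fgfr2+/S252W as well. The macrophage sum went by Csf1r and Cd68, which were higher in Fgfr2+/S252W, while C1qa, C1qb and Adgre1 were lower there in every library, and the median log2 change of the 5 was -1.19. The part of these in the muscle values was not tested. Heart muscle shares several of the 34 genes, and the 8 heart markers summed to 0.803 to 1.23 CPM in Fgfr2+/S252W bone and to 0.367 to 0.790 CPM in Fgfr2+/+ bone, with Nppa, Nppb, Nkx2-5 and Gata4 at 0 in both.

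**Figure D3:**
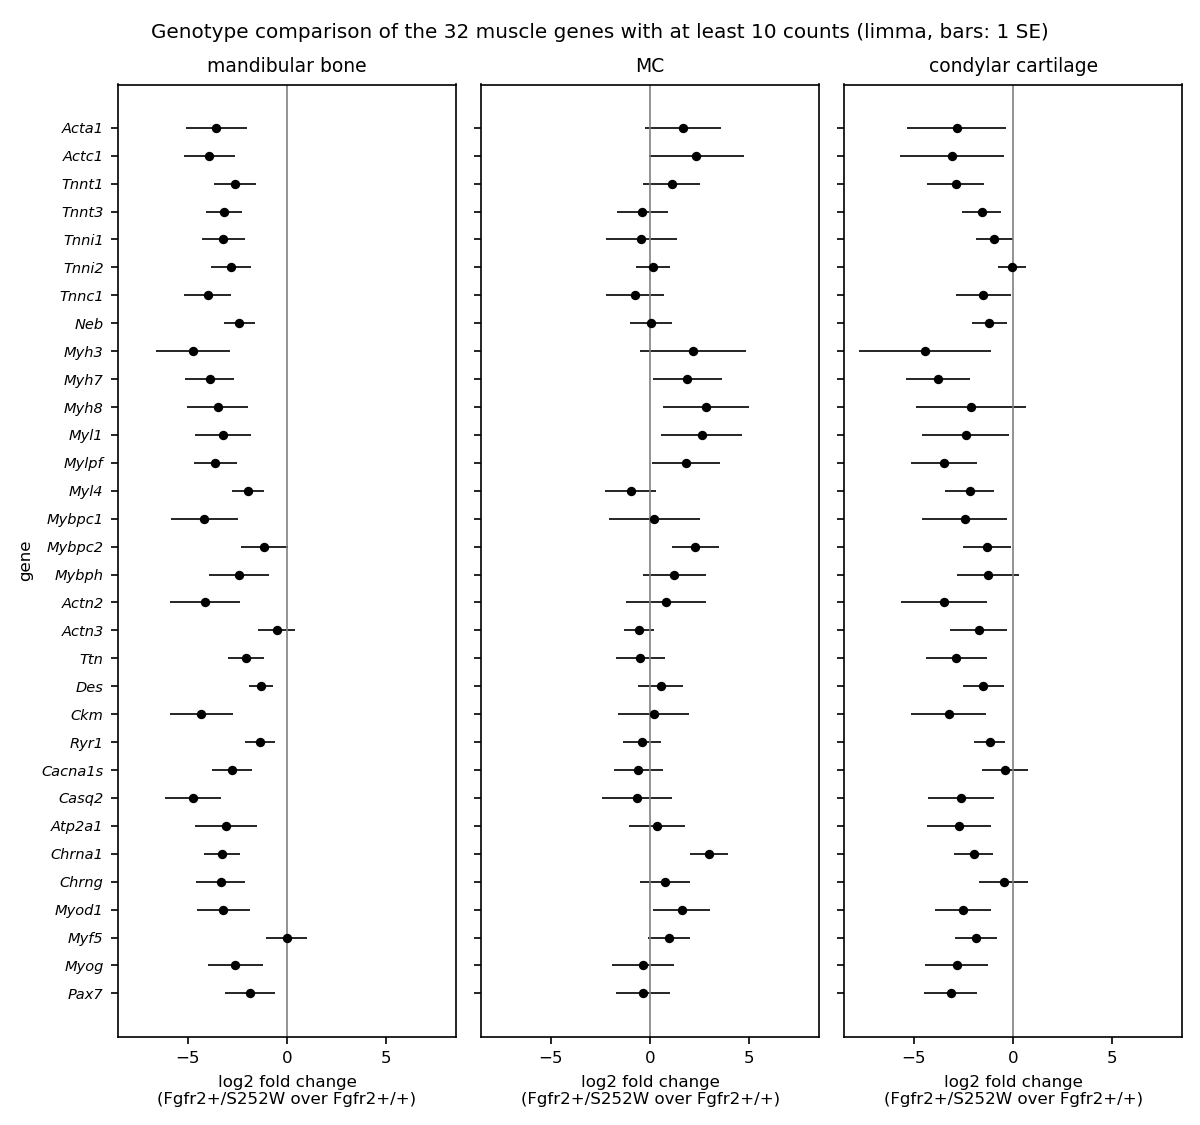
Log2 fold change, Fgfr2+/S252W over Fgfr2+/+, of the 32 genes with at least 10 fragments, in bone, MC and condylar cartilage (limma, n = 3 per group, bars are 1 SE). The points lie left of 0 in bone and condylar cartilage and on both sides of it in MC, with medians of -3.18 in bone, -2.28 in condylar cartilage and 0.43 in MC (-1.14 without Fgfr2+/+ MC replicate 1), and none passed the threshold.

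In MC the muscle genes did not separate the genotypes. Fgfr2+/+ replicate 2 was the highest library in 19 of the 33 genes counted there and Fgfr2+/S252W replicate 3 in 9, and Fgfr2+/+ replicate 1 had no fragment in 18 of the 34. Actc1 was at 5.34, 4.50 and 31.9 CPM in Fgfr2+/S252W and at 0, 57.8 and 19.3 CPM in Fgfr2+/+. Myh3 was at 3.61, 2.48 and 25.0 CPM against 0, 84.6 and 3.75 CPM, and Ttn at 61.3, 28.8 and 208 CPM against 30.5, 754 and 67.7 CPM. Myod1 was at 0, 0 and 4.73 CPM against 0, 0.191 and 0 CPM. The highest and the lowest library were both Fgfr2+/+ for Actc1 and Myh3, and the groups of all 4 genes overlapped. Of the 8 genes tested, 0 passed (no gene of the 11469 did, 0%), and 0 had an unadjusted p below 0.05 by limma, edgeR or DESeq2, where 15.4%, 16.9% and 18.2% of all genes had. Their median log2 change was 1.19 in limma, with 6 of 8 positive, but -0.63 in edgeR and -0.67 in DESeq2, with 6 of 8 negative, and -0.96 in limma without Fgfr2+/+ replicate 1. The mean summed level likewise lay on the other side, at 212 ± 194 CPM in Fgfr2+/S252W and 483 ± 652 CPM in Fgfr2+/+ (SD, n = 3). In the fit of 32 genes 0 passed (0.0388% of all genes), with 1 at an unadjusted p below 0.05 (12.8% of all). That gene, Chrna1, was at 0.935, 0.225 and 0.525 CPM against 0 in all Fgfr2+/+ libraries (11 fragments in all, adjusted p 0.202, at least 4.43-fold higher, or 2.80-fold without Fgfr2+/S252W replicate 1). Without Fgfr2+/+ replicate 1 the fit of 32 genes also had 0 past the threshold, with 22 of 32 values negative and a median of -1.14 in place of 0.43. No gene had all Fgfr2+/S252W libraries lowest, as 4.58% of all genes had, and Chrna1 alone had them highest, as 6.00% of all genes had. The macrophage markers also split the genotypes in MC, at 60.7 to 93.0 CPM in Fgfr2+/S252W against 27.4 to 52.0 CPM. Fgfr2+/+ MC replicate 2, highest in the summed muscle level, also had the highest mitochondrial share of the 18 libraries (38.1%, against 26.3% to 35.4% in the other MC libraries) and the highest smooth muscle sum (119 CPM). The part of these in the muscle values was not tested.

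In condylar cartilage the summed level of the muscle genes was at 33.7 to 43.2 CPM in 4 of the 6 libraries, with Ttn, Neb and Tnni1 well above the level of 1 fragment, and was high in Fgfr2+/+ replicates 2 and 3. Actc1 was at 1.34, 0.860 and 1.03 CPM in Fgfr2+/S252W and at 0.601, 34.1 and 51.6 CPM in Fgfr2+/+ (log2 change -3.09, SE 2.70, adjusted p 0.998). Acta1 was at 0.201, 0.688 and 0.385 CPM against 0.150, 7.89 and 26.5 CPM, and Ttn at 17.8, 13.4 and 4.49 CPM against 9.09, 192 and 377 CPM. Replicate 1 of Fgfr2+/+ lay within or below the range of Fgfr2+/S252W in all of these. Mylpf was at 0.335, 0.516 and 0.385 CPM against 1.503, 7.06 and 14.1 CPM, a change of -3.51 (SE 1.78, adjusted p 0.998) with no overlap. Such a lack of overlap held for 4 of the 34 genes (Tnnt1, Tnnt3, Mylpf and Atp2a1), and for 5.21% of all genes. Of the 8 genes tested 0 passed, as did 0% of all genes, although all 8 values were negative. At an unadjusted p below 0.05 there were 0 with limma, 4 with edgeR and 4 with DESeq2, where 3.06%, 3.48% and 4.03% of all genes had such a p. Of the 32 genes 0 passed (0% of all) and 3 (Mylpf, Myh7 and Pax7) had an unadjusted p below 0.05, as 4.03% of all genes in that fit had. Ckm and Myh7 had no fragment in Fgfr2+/S252W and were at least 17.9-fold and 21.4-fold lower, with 57 and 68 fragments in Fgfr2+/+, and Myog, Myod1 and Pax7 likewise were at least 7.23-fold, 5.66-fold and 11.3-fold lower by counting alone. The fragments of these 5 genes all came from Fgfr2+/+ replicates 2 and 3, and most of them from replicate 3. Without replicate 3 the bounds fell to 2.71-fold for Ckm, on 6 fragments, 11.8-fold for Myh7, 3.62-fold for Myog, 1.81-fold for Myod1 and 4.07-fold for Pax7.

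Beside this, mitochondrial shares in condylar cartilage were 23.6% to 27.7% in Fgfr2+/S252W and 19.4%, 23.6% and 20.0% in Fgfr2+/+, and did not mark the high libraries. The osteoblast markers and Col10a1, the collagen of hypertrophic chondrocytes, were higher in replicate 3 of both genotypes, at 19883 and 12509 CPM for the osteoblast sum against 5076 to 6219 CPM in the other 4 libraries. The heart markers summed to 0 to 1.03 CPM and the tendon markers overlapped between genotypes.

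Whether the genotype difference itself differed between tissues was tested as an interaction. For the 8 genes, 0 passed for bone against MC, for condylar cartilage against MC and for condylar cartilage against bone, where 0.0349%, 0% and 0% of all genes passed. At an unadjusted p below 0.05 there were 2, 0 and 0 (Myl1 and Mylpf), where 9.12%, 7.88% and 1.94% of all genes had it. With edgeR there were 3, 2 and 1 (8.39%, 8.32% and 2.15% of all genes) and with DESeq2 5, 2 and 1 (9.38%, 9.39% and 2.49%), and 0 passed in either tool. For Mylpf the change in bone was lower than that in MC by 4.05 (log2 difference -4.05, SE 1.76, adjusted p 0.513). In the fit of 32 genes 0 passed in each (0% of all), with 9, 6 and 0 at an unadjusted p below 0.05 (9.16%, 7.97% and 2.73% of all genes), and the smallest adjusted p was that of Chrna1 for bone against MC (-6.30, SE 1.28, adjusted p 0.148). Without Fgfr2+/+ MC replicate 1, 0 passed in each of these fits, Mylpf had -2.86 (adjusted p 0.575) and Chrna1 -6.50 (SE 1.39, adjusted p 0.186).

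The tissues were compared within embryos, averaged over the genotypes. Of the 8 tested, 1 differed between bone and MC, 2 between condylar cartilage and MC and 1 between condylar cartilage and bone, against 49.5%, 55.2% and 41.8% of all genes. In the fit of 32, it was 4, 3 and 3, against 39.1%, 43.4% and 34.6%. Without Fgfr2+/+ MC replicate 1 it was 5, 11 and 9, the added ones for condylar cartilage being lower there, among them Acta1, Actc1, Myh3 and Myh8 against both other tissues. The share of all genes that passed without that library is not given here, so these counts are not read as a result about the muscle genes.

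Tnni2 (chromosome 7, 142441808 to 142444410 on GRCm38) was lower in bone than in either cartilage. It was at 0, 0.266 and 0.482 CPM in Fgfr2+/S252W bone and at 1.67, 2.05 and 0.452 CPM in Fgfr2+/+ bone. In MC it was at 1.07, 3.60 and 2.98 CPM and at 0.836, 3.83 and 3.00 CPM, and in condylar cartilage at 4.15, 2.06 and 0.898 CPM and at 2.40, 1.58 and 3.43 CPM. The log2 difference was -2.27 (SE 0.61, adjusted p 0.00534) for bone against MC and 2.16 (SE 0.59, adjusted p 0.00670) for condylar cartilage against bone, and the cartilages differed by -0.11 (SE 0.56, adjusted p 0.885). Both calls held in each of the 30 alternatives. In the 4 condylar libraries with a low summed level Tnni2 was at 4.44, 2.21, 0.960 and 2.57 FPKM and Actc1 at 0.828, 0.531, 0.634 and 0.372 FPKM, so that per length Tnni2 was the higher in all 4. In Fgfr2+/S252W condylar replicates 1 and 2 its level per length was 5.36 and 4.15 times that of Actc1, and in Fgfr2+/+ bone replicates 1 and 2 it was 0.0230 and 0.0236 times.

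Tnni1 (chromosome 1, 135783065 to 135810989) was higher in condylar cartilage than in MC, by 2.26 (SE 0.88, adjusted p 0.0366). It was at 1.61, 2.41 and 6.54 CPM in Fgfr2+/S252W and at 2.63, 5.98 and 9.84 CPM in Fgfr2+/+ condylar cartilage, against 0.267, 0 and 2.80 CPM and 0, 4.59 and 2.44 CPM in MC. So both inhibitory troponins were counted in all 6 condylar libraries, also in Fgfr2+/S252W replicates 2 and 3, where Myh3 had no fragment. Acta1 went the other way, lower in condylar cartilage by -2.44 (SE 0.97, adjusted p 0.0422), with adjusted p from 0.00181 to 0.750 over the alternatives. Without Fgfr2+/+ MC replicate 1, Tnni1 had 1.31 (adjusted p 0.0704) and Acta1 -3.07 (adjusted p 0.00181). These calls were fragile: Tnni1 failed in 8 of 30 alternatives (adjusted p up to 0.135) and Acta1 in 19.

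**Figure D4:**
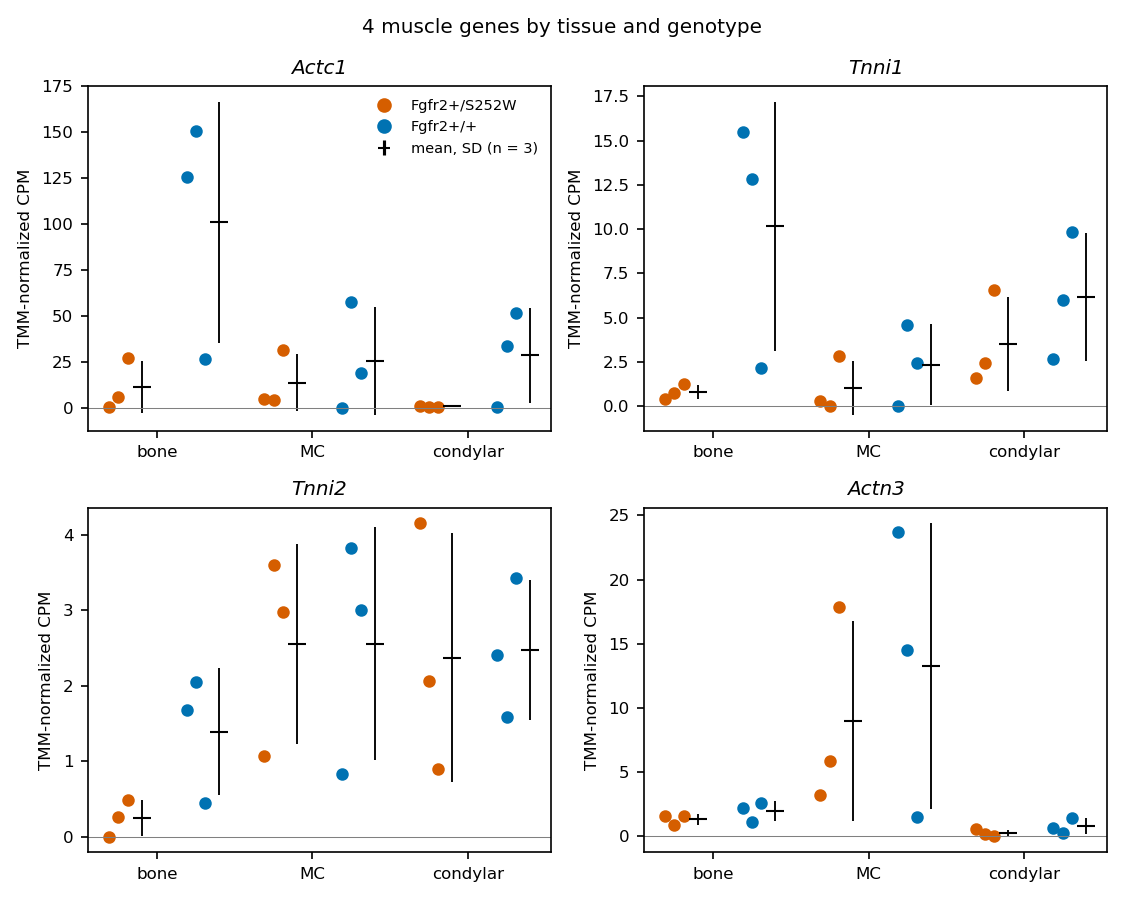
TMM-normalized CPM of Actc1, Tnni1, Tnni2 and Actn3 in each library (points, 3 per group), with the group mean and SD at their right. Actc1 is high only where the summed muscle level is high, Tnni1 and Tnni2 are present in all condylar libraries, and Actn3 is highest in MC.

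Actn3 (chromosome 19, 4861223 to 4877909) was the only gene of the 32 that passed in all 3 tissue comparisons. In MC it was at 3.21, 5.85 and 17.9 CPM in Fgfr2+/S252W and at 23.7, 14.5 and 1.4998 CPM in Fgfr2+/+, in bone between 0.842 and 2.60 CPM, and in condylar cartilage between 0 and 1.44 CPM. The fit of genes with at least 10 fragments gave -2.19 for bone against MC (SE 0.54, adjusted p 0.00353), -4.29 for condylar cartilage against MC (SE 0.70, adjusted p 6.18e-05) and -2.11 for condylar cartilage against bone (SE 0.64, adjusted p 0.0146). Fgfr2+/+ MC replicate 3 lay within the range of bone. Its highest level, 23.7 CPM, was in Fgfr2+/+ MC replicate 1, the library with no fragment of Actc1, Myh3, Myh8, Myl1 or Actn2. In that library Actn3 took 32.3% of the fragments on the 34 genes, against 0 to 7.74% elsewhere. Also in that fit, Atp2a1 was lower in bone than in MC (-2.20, SE 0.78, adjusted p 0.0308), Myh7 higher (2.92, SE 0.84, adjusted p 0.0102), Ckm lower in condylar cartilage than in MC (-2.71, SE 1.03, adjusted p 0.0404) and Ttn lower in condylar cartilage than in bone (-2.01, SE 0.63, adjusted p 0.0181). Without Fgfr2+/+ MC replicate 1, a setting chosen after seeing the data, Actn3 had -1.63 for bone against MC (SE 0.63, adjusted p 0.0445) and -3.73 for condylar cartilage against MC (SE 0.73, adjusted p 0.000366). The calls of Atp2a1 (adjusted p 0.0002), Myh7 (adjusted p 0.0225) and Ckm (adjusted p 0.00262) against MC held as well.

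A further list of 50 genes of muscle, among them Myh1, Ldb3, Myot and Xirp2, was read in the same way. In bone, 0 of the 13 tested and 0 of 47 with at least 10 fragments passed, 45 of the 47 values were negative, and their median log2 change was -2.02. In MC 21 of 47 and in condylar cartilage 40 of 47 were negative, with medians of 0.07 and -0.91 and again 0 passed. The summed level of the 50 did not follow that of the 34, at 541 to 746 CPM in Fgfr2+/S252W bone, 768 to 817 CPM in Fgfr2+/+ bone and 948 to 1113 CPM in condylar cartilage, and in these tissues Mef2c made up most of it. This transcription factor, which also acts in hypertrophic chondrocytes and bone, was at 842 to 998 CPM in condylar cartilage, 399.6 to 613 in bone and 78.3 to 233 in MC. Tpm2, beta-tropomyosin, was at 39.5 to 49.5 CPM in Fgfr2+/S252W bone and 50.3 to 84.4 CPM in Fgfr2+/+ bone (-0.51, SE 0.24, adjusted p 0.614). Eno3, the enolase of muscle, was at 13.3 to 14.1 against 18.2 to 31.4 CPM (-0.72, SE 0.22, adjusted p 0.331).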

How the data were processed

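RNA was amplified, sequenced as paired ends and, per the labels and the study's methods, mapped to mm10 with STAR; the deposited values are raw counts of fragments per gene that the authors made with featureCounts 1.5.0-p1 over Ensembl 75 exons on GRCm38, unstranded. Whether PCR duplicates were removed is not given in the sources used here. Of 38243 genes, 36964 had a symbol. From these counts, the 11469 genes whose level exceeded 1 FPKM in 50% or more of the libraries were normalized by TMM and fitted with voom, limma 3.58.1 and eBayes (R 4.3.3), with 6 group means for the genotype and with the embryo as a block for tissues and interactions. The adjusted p (Benjamini-Hochberg over all genes, two-sided) had a threshold of 0.05. Embryos, and so that block, were inferred from the sample codes, which do not state them. A fit of the 20614 genes with at least 10 counts was added, and edgeR 4.0.16, DESeq2 1.42.0, other filters, scalings, weights and blocks and left-out libraries were the alternatives. The procedure was tested on simulated data. Genes given by library, in bone at least, were the 3 of highest mean FPKM per role and any past the threshold between genotypes; others named were chosen after their values were seen. Members and lists were chosen with earlier results of these data known. Replicates are separate embryos, and no pair of libraries in a group agreed within sampling noise. The nerve marker list is not reported here.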

Additional observations from a re-analysis of the deposited data

How the results depend on the processing

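In bone, the count of muscle genes past the threshold was 0 of 8 in most settings but 8 with sample quality weights, 0 to 3 when 1 library was left out (3 without Fgfr2+/+ bone replicate 3), and, in fits of the 6 bone libraries alone, 0 of 13, or 1 of 32 (Ttn) among genes with at least 10 counts. The latter filter on 6 libraries, and leaving out the Fgfr2+/+ embryo of number 2, were chosen after seeing the data. In condylar cartilage and MC the count of the genotype comparison was 0 whichever library was left out. Between tissues, bone against MC gave 5 with filterByExpr, 4 with at least 10 counts and 1 to 2 without 1 library (2 without Fgfr2+/+ bone replicate 1 or 3). Condylar cartilage against MC gave 8 with filterByExpr, 1 with edgeR, DESeq2, the embryo as random block, no embryo block or without the Fgfr2+/+ embryo of number 2, 0 with sample quality weights, and 0 to 3 without 1 library, with 0 when Fgfr2+/S252W MC replicate 1 or 2, any Fgfr2+/S252W condylar replicate or Fgfr2+/+ MC replicate 2 was left out. Condylar cartilage against bone gave 2 with edgeR, totals without mitochondrial genes and Gm42418, the random block or no block, 3 with DESeq2, filterByExpr or at least 10 counts, 6 with 12 libraries, and 1 to 5 without 1 library (5 without Fgfr2+/+ MC replicate 1 or condylar replicate 3). Totals without mitochondrial genes and Gm42418 moved the mean summed level to 246 CPM in Fgfr2+/S252W bone, 1739 in Fgfr2+/+ bone, 439.6 in Fgfr2+/S252W MC, 850.4 in Fgfr2+/+ MC, 69.3 in Fgfr2+/S252W and 633 in Fgfr2+/+ condylar cartilage, from 119, 805, 212, 483, 38.7 and 356, by leaving counts out of the total; the median log2 change of all genes then shifted to -0.21 for condylar cartilage against bone, -0.12 for condylar cartilage against MC and 0.14 for the genotypes in MC. Genes with at least 10 counts without Fgfr2+/+ MC replicate 1, also chosen after seeing the data, gave 5, 11 and 9 for bone against MC, condylar cartilage against MC and condylar cartilage against bone. For most alternatives in this paragraph the count over all genes is not given here. In the main fit 49.5%, 55.2% and 41.8% of all genes passed in these comparisons, in the same order. The counts are thus not read as a result about the muscle genes. Single genes were followed under the alternatives for the 8 genes in the genotype comparison of bone and for the tissue differences called in the main fit. Of these 371 values, 319 kept their side of the threshold, 27 lost it, 25 gained it and 0 changed sign. Genotype changes in MC and condylar cartilage were not among them, and the medians in MC given above did change sign.

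A block for the replicate number that both genotypes share was tried as well. The deviations of same-numbered libraries from their group means correlated at -0.12, 0.20 and 0.12 in bone, -0.15, -0.05 and -0.07 in MC and 0.07, 0.04 and 0.28 in condylar cartilage, so the numbers are not shown to pair embryos, and in no tissue did every library correlate best with its own number. With the replicate block the count stayed 0 with 18 libraries in all 3 tissues. In the 6 libraries of a tissue with the replicate block, 13 of 13 genes passed in bone (554 of all 12322) and 1 of 4 in condylar cartilage (Mylpf; 7 of all 11631), and with at least 10 counts 22 of 32 (591 of all 17850) and 3 of 30 (Actc1, Mylpf and Ttn; 14 of all 16910). In the filter, which used totals without TMM scaling, Tnnc1 of the 13 in bone and Mylpf in condylar cartilage exceeded 1 FPKM in Fgfr2+/+ libraries alone. They passed it only through the group where they are high, so that the counts that hold them are no support.

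With 3 libraries per group, counts of the transcription factors and receptor subunits under 140 fragments in all, and a spread within Fgfr2+/+ as wide as the difference, the precision is set by few libraries; counting floors cover counting error only.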
